A study of Arabidopsis thaliana with 6 samples.

Results

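The 44 genes described here encode glutathione S-transferases. They are the genes whose deposited name begins with GST, a class letter U, F, Z, T or L and a number, and that carry a test in all 3 deposited comparison tables. They make up 44 of 23540 genes with a test among 34262 listed. By class letter, 27 belong to the tau class, 10 to phi, 3 to theta, 3 to lambda and 1 to zeta. A further phi-class gene was not analysed here, and 4 genes of the family listed under other names, ATGSTF4, ATGSTF5, ATGSTU21 and ATGSTZ1, fall outside the naming rule and were called in no comparison.

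The study compared Arabidopsis thaliana seedlings of 3 genotypes in the Col-0 ecotype. Whole seedlings, 14 days old and raised in long days at 22 °C, gave 2 RNA-seq libraries of each genotype. The genotypes are WT, jmj28 and JMJ28np5-OE, and all 3 share the Col-0 background. JMJ28 encodes a JmjC-domain histone demethylase. The labels do not state the allele in jmj28, the promoter and construct behind JMJ28np5-OE or the number of lines. Nor do they state whether the libraries of a genotype came from separate cultures, so the p-values below measure only the spread between these libraries, which may be technical.

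Glutathione S-transferases bind the tripeptide glutathione and join it to electrophilic compounds such as herbicides, lipid peroxidation products and plant secondary metabolites, and the conjugates are then moved into the vacuole. The tau and phi classes are specific to plants in their present number, hold many tandem copies and include genes induced by stress hormones and xenobiotics. The theta, zeta and lambda classes are small: theta enzymes act on peroxides, zeta enzymes on an intermediate of tyrosine breakdown, and lambda enzymes carry a cysteine in the active site and act as thiol transferases.

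The levels are in RPKM, reads scaled to exon length and to the library total. The deposited tables give for each comparison the higher of the genotype means, and whole reads of each library were recovered from these means for the highest and the second genotype of a gene. The lowest genotype is known only as a mean, set by the deposited fold change, so its libraries have no spread here. The 6 libraries held 10632893 to 19693228 reads, and each genotype has a deeper and a shallower library, in which order paired values are given. For all genes above 5 RPKM, the log2 ratio of the deeper to the shallower library had an SD of 0.18 in WT, the same in jmj28 and 0.27 in JMJ28np5-OE. A gene is said to have risen or fallen where the FDR in the authors' deposited table is under 0.05. Those FDR values adjust over all 34262 listed genes, and the deposited tables give no standard error of a fold change.

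JMJ28 itself had 6.90 and 6.50 RPKM in WT, 244 and 307 in JMJ28np5-OE and a mean of 3.19 in jmj28. Its level was thus lowest in jmj28 and far above both other genotypes in JMJ28np5-OE. In the authors' deposited table its log2 fold change was -1.10 for jmj28 against WT (FDR = 3.07e-08) and 5.38 for JMJ28np5-OE against WT, with an FDR listed as 0. JMJ28 transcripts were lower but still present in jmj28.

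Glutathione S-transferase RNA was abundant in these seedlings, and a few genes carried most of it. The summed level of the 44 genes was 3273 RPKM in WT, 2921 for jmj28 and 3008 for JMJ28np5-OE. Phi genes, 10 of the 44, held 57.8% of the WT sum, 55.2% of the jmj28 sum and 57.5% of the JMJ28np5-OE sum, and the 27 tau genes held 32.8%, 34.9% and 32.4%. GSTF9, GSTU19, GSTF10 and GSTU20, singled out after their values were seen, held between 60.8% (WT) and 62.0% (JMJ28np5-OE) of the sum. The make-up of the family by class therefore differed by under 3 percentage points between genotypes.

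By its highest genotype mean, a gene reached at least 100 RPKM in 9 cases, 6 of them phi (GSTF2, GSTF6, GSTF7, GSTF8, GSTF9 and GSTF10), 2 tau (GSTU19 and GSTU20) and GSTL3. Another 17 genes lay between 10 and 100 RPKM, 15 between 1 and 10, and 3 tau genes, GSTU3, GSTU11 and GSTU15, stayed under 1. The median phi gene had 125 RPKM in WT and the median tau gene 9.93. GSTF9, the most abundant phi gene, had 890.1 and 972 RPKM in WT, 966 and 907 in JMJ28np5-OE and a mean of 836 in jmj28. Its WT and JMJ28np5-OE libraries overlapped, and it passed the test in none of the 3 comparisons.

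**Figure D1:**
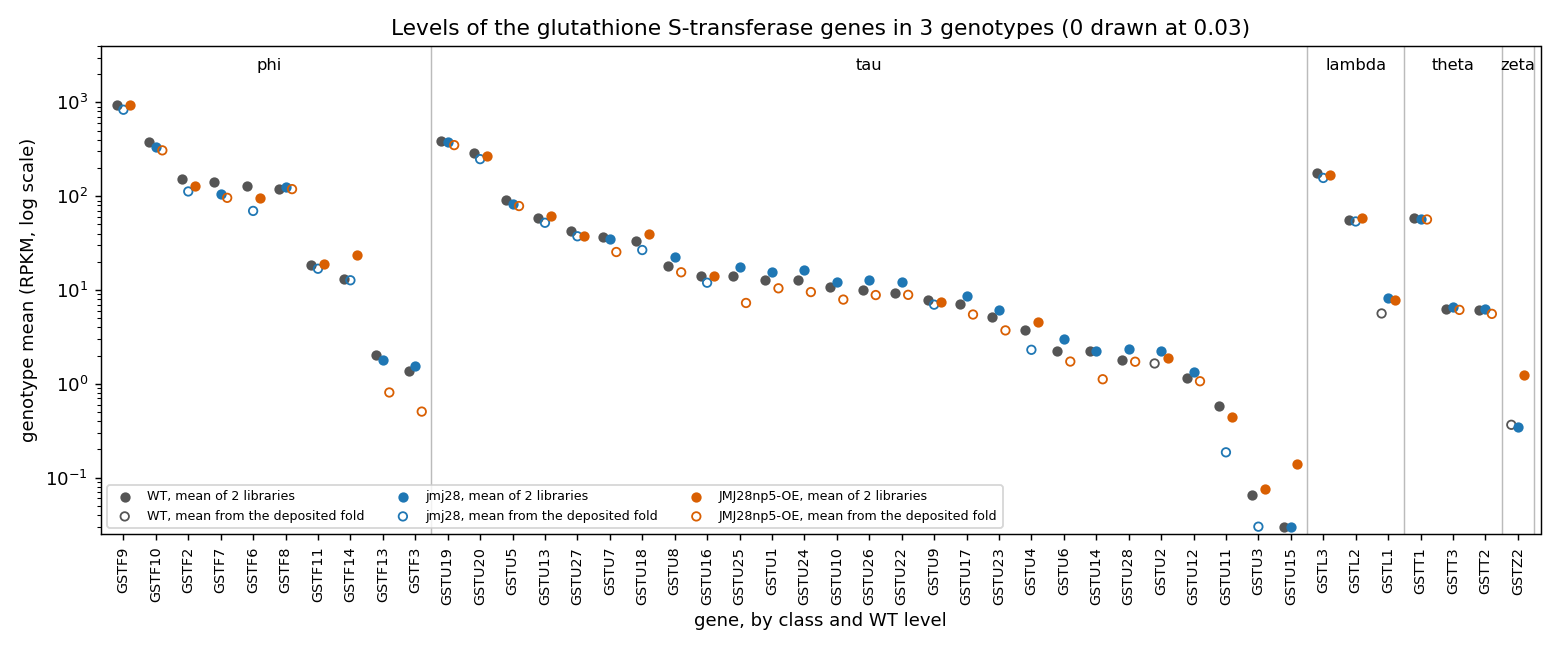
Genotype means (RPKM, log scale) of the 44 genes, sorted by class and WT level, with filled circles for means whose 2 libraries were recovered and open circles for means set by the deposited fold change. The 6 phi genes at 100 RPKM or more stand with GSTU19, GSTU20 and GSTL3 at the top, and the 3 genotypes of most genes lie close together.

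In jmj28 against WT, which asks what changes when JMJ28 is reduced, the phi genes GSTF6, GSTF2 and GSTF7 fell. No gene of the family rose, and the other 41 did not pass the test. Beside these 3 of 44 genes, the authors' deposited table called 1.30% of all tested genes in this comparison, 0.208% higher and 1.10% lower, and 1.59% of those of at least 1 RPKM. All 3 calls were among the 10 phi genes, and 0 of 27 tau genes were called. In the authors' test, 6 tau genes (22.2%) had an unadjusted p under 0.05, 2 higher and 4 lower. At that threshold stood 8.58% of all tested genes and 9.96% of those of at least 1 RPKM. The class medians of the log2 fold change were -0.18 for phi, -0.04 for tau, -0.09 for lambda, 0.01 for theta and -0.12 for the zeta gene, beside -0.004 over all tested genes. Over the 24 tau genes of at least 1 RPKM the tau median was 0.12, on the other side of 0. The classes also differed in level. All 3 called genes reached at least 100 RPKM, a level of 6 of 10 phi and 2 of 27 tau genes. The difference between the classes was not tested.

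GSTF6, which takes part in making the defence compound camalexin, lies between the phi genes GSTF7 and ATGSTF5 (AT1G02930, chromosome 1, 661088 to 662475, minus strand). It had 114 and 145 RPKM in WT, 116 and 74.2 in JMJ28np5-OE and a mean of 69.7 in jmj28. The jmj28 mean lay below all 4 recovered libraries, and the WT and JMJ28np5-OE libraries overlapped. Its log2 fold change in the authors' deposited table was -0.93 in jmj28 against WT (FDR = 1.75e-06), which ranked 33 by p among all tested genes. It was also lower in jmj28 than in JMJ28np5-OE, with a log2 fold change of -0.51 (FDR = 0.0179). That value rested on the deeper JMJ28np5-OE library: it was -0.15 without this library and -0.80 without the shallower one.

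GSTF7 lies next to GSTF6 (AT1G02920, chromosome 1, 658578 to 659980, minus strand) and encodes a closely related phi enzyme. It had 138 and 142 RPKM in WT, 99.9 and 109.6 in jmj28 and a mean of 96.1 in JMJ28np5-OE. Both WT libraries were above both jmj28 libraries and above the JMJ28np5-OE mean. GSTF7 fell in both lines, with deposited log2 fold changes of -0.45 for jmj28 (FDR = 0.0397) and -0.52 for JMJ28np5-OE (FDR = 0.00352). The 2 comparisons share the WT libraries. Between jmj28 and JMJ28np5-OE it differed by 0.07, and this did not pass the test.

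GSTF6 and GSTF7 are 94.3% identical in their coding sequence, with a longest shared stretch of 116 bases in their transcripts. No pair of the family shares a stretch of 150 bases, and how reads matching several genes were counted is not stated in the labels.

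GSTF2, whose product binds indole compounds, has no other member within 20000 bases (AT4G02520, chromosome 4, 1110343 to 1112033, minus strand). It had 156 and 150.0 RPKM in WT, 140.1 and 118 in JMJ28np5-OE and a mean of 112 in jmj28. Both WT libraries were above both JMJ28np5-OE libraries, and the jmj28 mean was below all 4. The deposited log2 fold change was -0.48 in jmj28 against WT (FDR = 0.0189) and -0.22 in JMJ28np5-OE, which did not pass (FDR = 0.621). The gene overlaps TOC159, the gene of a chloroplast import receptor, by 1442 bases on the opposite strand, and the library kit does not mark strand, so reads of the shared stretch cannot be told apart. TOC159, with a highest mean of 56.8 RPKM, had a deposited log2 fold change of 0.02 in the same comparison and was not called.

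The remaining phi genes are GSTF3, a near copy of GSTF2 with 94.5% coding identity, and GSTF8, GSTF9, GSTF10, GSTF11, GSTF13 and GSTF14. In jmj28 against WT their deposited log2 fold changes ran from -0.23 for GSTF10 to 0.13 for GSTF3, and none was called. GSTF8, known for its early response to stress, had 118 and 123 RPKM in WT, 125 and 123 in jmj28 and a mean of 119 in JMJ28np5-OE. Both jmj28 libraries were above both WT libraries, by little, and no comparison was called.

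In JMJ28np5-OE against WT, 5 of the 44 genes passed the test, 1 higher and 4 lower. GSTF14 rose, and GSTF7, GSTF10, GSTU25 and GSTU7 fell. The authors' deposited table called 3.55% of all tested genes here, 2.87% higher and 0.684% lower, and 4.34% of those of at least 1 RPKM, so calls over all genes were mostly higher and those in this family mostly lower. By class, the calls were 3 of 10 phi genes and 2 of 27 tau genes. Of the 44 genes, 30 had a negative log2 fold change, beside 49.4% of all tested genes, and the median was -0.10, beside 0.002 over all tested genes. By class the median was -0.26 for phi, -0.14 for tau, 0.08 for lambda, -0.03 for theta and 1.76 for the zeta gene, which had few reads.

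GSTF14, a phi gene with no other member within 20000 bases (AT1G49860, chromosome 1, 18458526 to 18459969, plus strand), had 13.3 and 12.9 RPKM in WT, 22.1 and 24.9 in JMJ28np5-OE and a mean of 12.7 in jmj28. Both JMJ28np5-OE libraries were above both WT libraries, while jmj28 was close to WT. The deposited log2 fold change was 0.87 in JMJ28np5-OE against WT, or 1.82-fold (FDR = 0.00254). In jmj28 against JMJ28np5-OE it was -0.95 (FDR = 0.000306). GSTF14 was the only member called higher in JMJ28np5-OE than in WT.

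GSTF10, next to GSTF9 (AT2G30870, chromosome 2, 13141290 to 13142676, plus strand), encodes a phi enzyme known to bind the receptor kinase BAK1. It had 358 and 408 RPKM in WT, 341 and 327 in jmj28 and a mean of 308 in JMJ28np5-OE. Both WT libraries were above both jmj28 libraries. It fell by 0.29 on the log2 scale in JMJ28np5-OE (FDR = 0.0267 in the authors' deposited table), the smallest called change of the family. The value for jmj28, -0.23, did not pass (FDR = 0.273).

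Low phi genes had larger fold changes that did not pass the test. GSTF13 had 1.71 and 2.36 RPKM in WT, 1.85 and 1.76 in jmj28 and a mean of 0.809 in JMJ28np5-OE. GSTF3 had 1.02 and 1.74 RPKM in WT, 0.494 and 2.59 in jmj28 and a mean of 0.506 in JMJ28np5-OE. The 2 jmj28 libraries of GSTF3, with 7 and 32 reads, stood far apart. The deposited log2 fold changes in JMJ28np5-OE against WT were -1.27 and -1.42, with FDR values of 0.249 and 0.449 in the authors' deposited table.

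**Figure D2:**
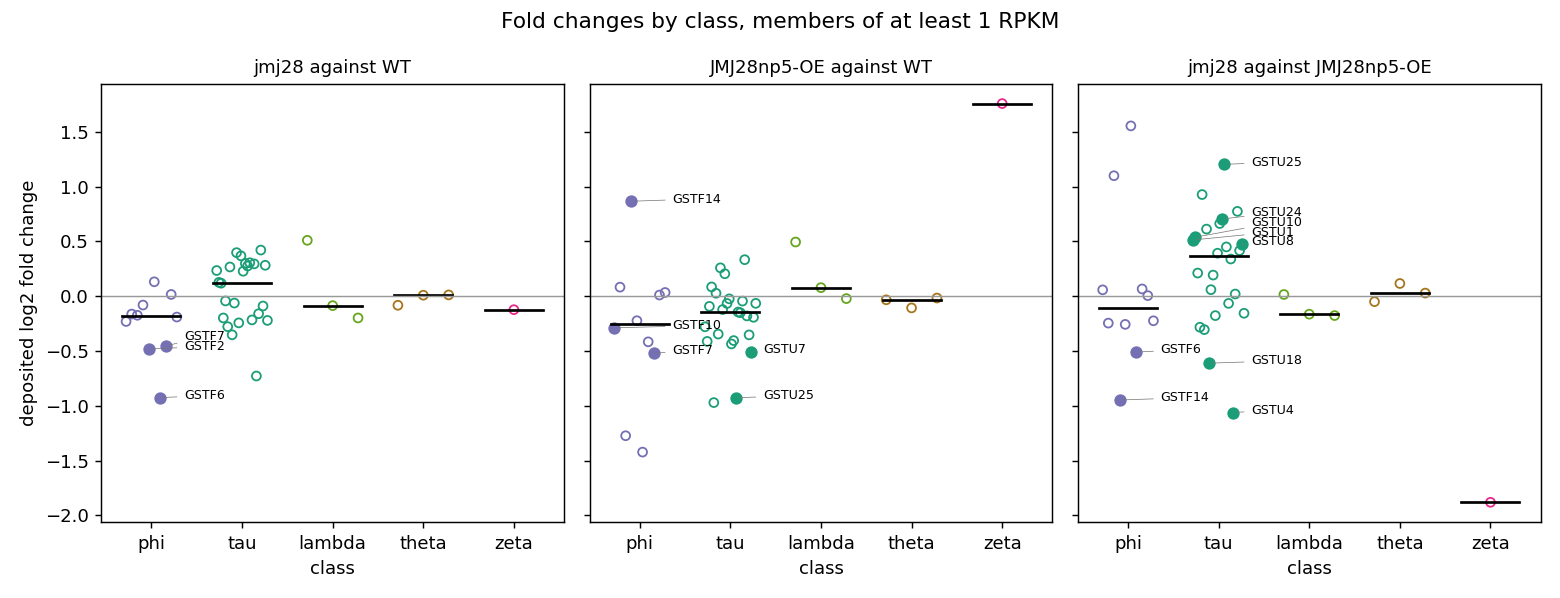
Deposited log2 fold changes by class for the 41 genes of at least 1 RPKM, in the 3 comparisons, with filled points and names for genes at an FDR under 0.05 and bars for class medians over the plotted genes. The 3 calls in jmj28 against WT are phi genes, and 7 of the 9 calls in jmj28 against JMJ28np5-OE are tau genes.

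Tau genes were called mainly between the 2 altered lines. In jmj28 against JMJ28np5-OE, 5 of 27 tau genes were higher (GSTU25, GSTU24, GSTU8, GSTU1 and GSTU10) and 2 were lower (GSTU18 and GSTU4), and 2 of 10 phi genes were lower (GSTF14 and GSTF6). These 9 of 44 genes stand beside 11.4% of all tested genes, 4.12% higher and 7.29% lower, and 13.9% of those of at least 1 RPKM. The median log2 fold change of the tau class was 0.21, or 0.36 over its 24 genes of at least 1 RPKM, beside -0.02 over all tested genes. The other medians were -0.11 for phi, -0.16 for lambda, 0.03 for theta and -1.88 for the zeta gene. This comparison uses the same jmj28 and JMJ28np5-OE libraries as the other 2, so its values are not independent of them.

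GSTU25 had the largest called positive fold change of the family. Its product and that of the adjacent GSTU24 are known to conjugate the explosive TNT. GSTU25 (AT1G17180, chromosome 1, 5872024 to 5873124, plus strand) had 15.5 and 12.7 RPKM in WT, 19.8 and 15.2 in jmj28 and a mean of 7.28 in JMJ28np5-OE. The WT and jmj28 libraries overlapped, and the JMJ28np5-OE mean was below all 4. In the authors' deposited table it fell by 0.93 on the log2 scale in JMJ28np5-OE against WT (FDR = 0.0104) and was 2.30-fold higher in jmj28 than in JMJ28np5-OE (FDR = 5.70e-05).

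GSTU24 (AT1G17170, chromosome 1, 5869543 to 5870883, plus strand) had 12.8 and 12.8 RPKM in WT, 14.1 and 18.2 in jmj28 and a mean of 9.51 in JMJ28np5-OE. Both jmj28 libraries were above both WT libraries, and the JMJ28np5-OE mean was below all 4. The deposited log2 fold change was 0.70 in jmj28 against JMJ28np5-OE (FDR = 0.00673). Neither line passed against WT, with 0.30 in jmj28 and -0.40 in JMJ28np5-OE. The third gene of this group, GSTU26, had the same order of genotypes and 0.45 in jmj28 against JMJ28np5-OE, which did not pass (FDR = 0.0999 in the authors' deposited table).

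The upstream windows of GSTU24 and GSTU25 are shown because these neighbours were called together and each holds TGACG, the core of the as-1 element to which TGA factors bind. The 300 bases before the annotated start, chr1:5869243-5869542 and chr1:5871724-5872023 on the plus strand of TAIR10.1, are written 5′ to 3′ with TGACG in capitals, 169 bases before the start of GSTU24 and 87 bases before that of GSTU25.
GSTU24: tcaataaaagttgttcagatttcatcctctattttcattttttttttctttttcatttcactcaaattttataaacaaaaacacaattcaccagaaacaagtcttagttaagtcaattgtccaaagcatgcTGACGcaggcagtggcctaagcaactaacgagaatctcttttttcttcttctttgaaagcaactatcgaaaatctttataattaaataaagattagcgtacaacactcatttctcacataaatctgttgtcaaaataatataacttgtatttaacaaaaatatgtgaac
GSTU25: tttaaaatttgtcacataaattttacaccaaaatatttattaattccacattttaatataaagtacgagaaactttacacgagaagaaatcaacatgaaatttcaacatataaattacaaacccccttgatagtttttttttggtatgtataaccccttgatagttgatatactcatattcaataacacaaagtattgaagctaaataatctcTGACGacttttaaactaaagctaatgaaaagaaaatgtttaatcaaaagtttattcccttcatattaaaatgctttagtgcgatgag
TGACG was searched on both strands and was found in the windows of 13 of 27 tau genes and 3 of 10 phi genes, beside 21.9% of 23028 windows of coding genes. Among the 8 tau genes called in any comparison, 5 of the 6 that were lower in JMJ28np5-OE held it (GSTU24, GSTU25, GSTU7, GSTU1 and GSTU8, but not GSTU10). Neither of the 2 that were higher in JMJ28np5-OE than in jmj28, GSTU18 and GSTU4, held it, and 8 of the 19 tau genes that were not called did. The GSTU18 window, chr1:3396954-3397253, lies inside the annotated gene GSTU17 (3396883 to 3398358). The windows of GSTU2, GSTL3 and GSTT1 also run into a neighbouring member, GSTU1, GSTL1 and GSTT3 in that order. Such windows were kept in the counts, and overlap of windows with genes outside the family was not examined. TTGAC, the core of the W box that WRKY factors bind, shares 4 bases with TGACG where the letters run TTGACG, and was found in 27 of 44 windows, beside 50.6% of all. CACGTG, the G box, was found in 4 of 44 windows, beside 7.77% of all. These matches describe the windows, no binding was measured, and the pair shown was chosen after the values were seen.

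GSTU7, GSTU1 and GSTU4 belong to the largest tandem group of the family, 7 genes from GSTU7 to GSTU1 within 14603 bases of chromosome 2 (12617936 to 12632538). GSTU7 had 34.1 and 39.9 RPKM in WT, 36.9 and 33.7 in jmj28 and a mean of 25.4 in JMJ28np5-OE. Its WT and jmj28 libraries overlapped and JMJ28np5-OE was lower, with a log2 fold change of -0.51 against WT (FDR = 0.0247 in the authors' deposited table). GSTU1 had 12.3 and 13.5 RPKM in WT, 15.6 and 15.2 in jmj28 and a mean of 10.4 in JMJ28np5-OE. Both jmj28 libraries were above both WT libraries, and GSTU1 was 1.43-fold higher in jmj28 than in JMJ28np5-OE (FDR = 0.0309 in the authors' deposited table).

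GSTU4, at 3.54 and 3.92 RPKM in WT, 6.38 and 2.80 in JMJ28np5-OE and a mean of 2.31 in jmj28, was called in the opposite direction. Its deposited log2 fold change in jmj28 against JMJ28np5-OE was -1.06 (FDR = 0.0336 in the authors' deposited table). The 2 JMJ28np5-OE libraries, with 93 and 35 reads, differed by more than the genotype means did, and the value was -0.34 without the deeper of them. The other genes of the group, GSTU2, GSTU3, GSTU5 and GSTU6, were not called, although GSTU5 was its most abundant gene at 84.6 and 96.8 RPKM in WT. Members of 1 tandem group thus did not share a direction.

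GSTU18 and GSTU17 are neighbours on chromosome 1 whose annotated ends share 71 bases on the same strand. GSTU18 (AT1G10360, chromosome 1, 3395551 to 3396953, minus strand) had 33.5 and 33.0 RPKM in WT, 33.8 and 44.6 in JMJ28np5-OE and a mean of 26.7 in jmj28. The deeper JMJ28np5-OE library was level with WT and the shallower was above it. The deposited log2 fold change in jmj28 against JMJ28np5-OE was -0.61 (FDR = 0.000681), and it was -0.40 without the shallower JMJ28np5-OE library. GSTU17, whose product acts in responses to light and drought, had 0.61 in the same comparison, the opposite sign, and did not pass (FDR = 0.142 in the authors' deposited table).

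GSTU8 had 19.1 and 16.9 RPKM in WT, 24.7 and 20.2 in jmj28 and a mean of 15.5 in JMJ28np5-OE. GSTU10 had 11.4 and 10.001 RPKM in WT, 10.9 and 13.3 in jmj28 and a mean of 7.91 in JMJ28np5-OE. For both genes the JMJ28np5-OE mean was below all recovered libraries, and the jmj28 and WT libraries were separate for GSTU8 and overlapped for GSTU10. They were higher in jmj28 than in JMJ28np5-OE by 0.47 and 0.54 on the log2 scale, with FDR values of 0.0224 and 0.0319 in the authors' deposited table. GSTU10 overlaps AT1G74580 on the opposite strand by 279 bases and PCMP-E69 on the same strand by 21 bases, and neither of these was called.

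**Figure D3:**
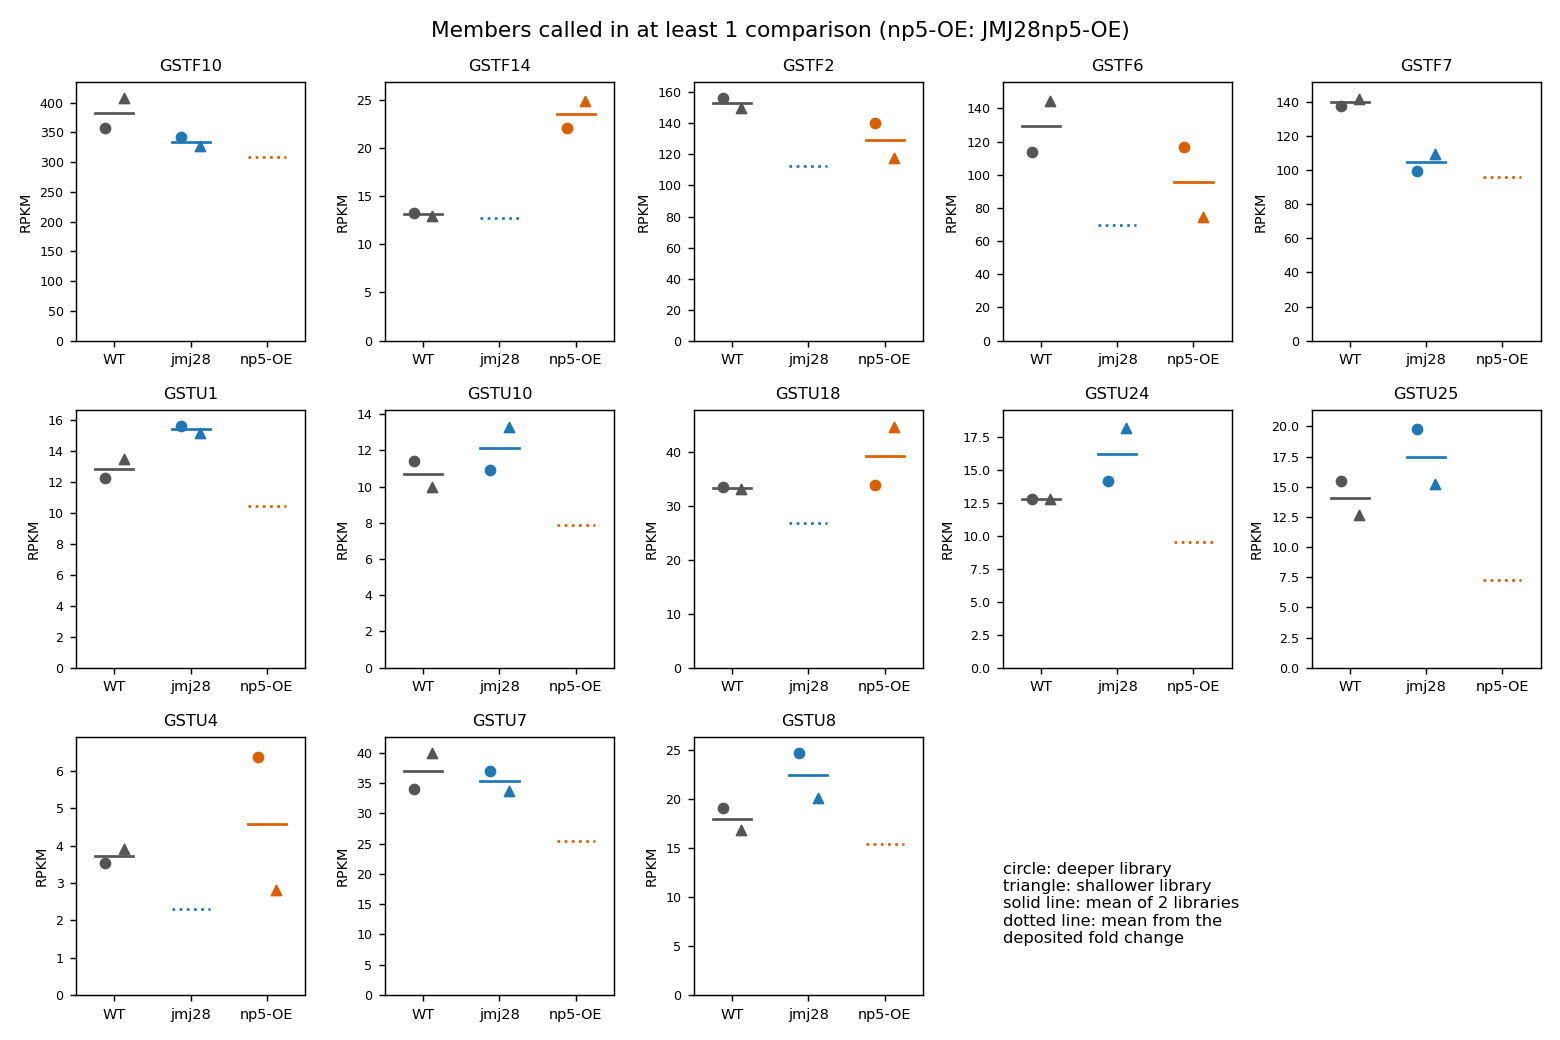
RPKM of the 13 genes called in at least 1 comparison, with circles for the deeper and triangles for the shallower library of a genotype, solid lines for means of 2 libraries and dotted lines for means set by the deposited fold change. JMJ28np5-OE is the lowest genotype of 8 genes and jmj28 of 5, and the 2 JMJ28np5-OE libraries of GSTU4 and GSTF6 stand apart.

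The most abundant tau genes did not pass the test. GSTU19, the tau gene with the highest mean, had 369.5 and 407 RPKM in WT, 383 and 378 in jmj28 and a mean of 351 in JMJ28np5-OE. GSTU20, which is known to interact with the jasmonate-conjugating enzyme JAR1, had 269 and 306 RPKM in WT, 278 and 262 in JMJ28np5-OE and a mean of 248 in jmj28. Both lie in a tandem group on chromosome 1 with GSTU22, GSTU23 and ATGSTU21, none of which was called. Over the 16 tau genes of at least 1 RPKM that were called nowhere, the deposited log2 fold changes ran from -0.28 for GSTU16 to 0.42 for GSTU6 in jmj28 against WT, from -0.97 for GSTU14 to 0.20 for GSTU2 in JMJ28np5-OE against WT and from -0.30 for GSTU16 to 0.93 for GSTU14 in jmj28 against JMJ28np5-OE. GSTU15 was found with 3 reads in 1 JMJ28np5-OE library and with 0 in the other 5, below what these depths can compare.

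Over the tau class, the order of the genotype means was jmj28 over WT over JMJ28np5-OE in 13 of 24 genes of at least 1 RPKM. This order was found in 2 of 10 phi genes, and in 34.3% of all genes of at least 1 RPKM. The reverse order, JMJ28np5-OE over WT over jmj28, was found in 4 tau and 3 phi genes, beside 20.4% of all. These orders ignore the spread between libraries. Among genes of at least 1 RPKM with libraries of both genotypes recovered, jmj28 and WT did not overlap in 9 of 24 family genes. Of these, 7 were higher and 2 lower in jmj28, beside 44.6% of all such genes not overlapping. The same held for 5 of 14 genes between JMJ28np5-OE and WT, 2 higher and 3 lower, beside 41.9%. Between jmj28 and JMJ28np5-OE it held for 1 of 3, beside 34.9%. Recovery leaves out the lowest genotype, so genes lowest in jmj28, such as GSTF6 and GSTF2, are missing from the first count. The directions in these counts therefore do not describe the family. Over all 41 members of at least 1 RPKM, 18 had a positive and 23 a negative log2 fold change in jmj28 against WT.

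The theta, lambda and zeta genes were not called in any comparison. GSTT1 had 55.6 and 62.5 RPKM in WT, 58.3 and 55.3 in jmj28 and a mean of 56.5 in JMJ28np5-OE. GSTT2 had 5.42 and 6.78 RPKM in WT and 6.04 and 6.39 in jmj28, and GSTT3 had 6.73 and 5.90 in WT and 6.73 and 6.42 in jmj28. The WT and jmj28 libraries overlapped for all 3 theta genes, and their deposited log2 fold changes lay between -0.11 and 0.12 over the 3 comparisons. GSTT2 and GSTT3 are 91.2% identical in coding sequence, with a longest shared stretch of 134 bases.

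Of the lambda genes, GSTL3 had 168 and 183 RPKM in WT, 171 and 169 in JMJ28np5-OE and a mean of 157 in jmj28. GSTL2 had 55.0 and 56.5 RPKM in WT, 56.3 and 59.5 in JMJ28np5-OE and a mean of 53.8 in jmj28. GSTL1, next to GSTL3, differed from both in that WT was lowest, at a mean of 5.62 RPKM, with 6.48 and 9.97 in jmj28 and 7.09 and 8.49 in JMJ28np5-OE. All 4 recovered libraries of GSTL1 were above the WT mean, and the deposited log2 fold changes of 0.51 and 0.49 did not pass (FDR = 0.596 and 0.38 in the authors' deposited table).

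The zeta gene GSTZ2 was near the limit of detection, with 3 and 4 reads in the jmj28 libraries, 9 and 14 in the JMJ28np5-OE libraries and a mean of 0.366 RPKM in WT. Both JMJ28np5-OE libraries were above both jmj28 libraries. The deposited log2 fold change in JMJ28np5-OE against WT, 1.76, did not pass (FDR = 0.297).

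Over the 3 comparisons, 13 genes were called in at least 1, 4 in 2 and none in all 3, and 31 in none. The 4 were GSTF6, GSTF7, GSTF14 and GSTU25. The shares of all tested genes called in at least 1 or in 2 comparisons were not counted, so these numbers have no background. Singly, jmj28 against WT called 1.30% of all tested genes, JMJ28np5-OE against WT 3.55% and jmj28 against JMJ28np5-OE 11.4%. Counting the 44 members only, 31 lie in 11 tandem groups whose neighbours are under 20000 bases apart, and 13 have no member so near. The family genes listed under other names are not in this count, although ATGSTZ1 lies beside GSTZ2, ATGSTF5 beside GSTF6 and ATGSTU21 beside GSTU20.

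Genes that supply, use or move glutathione were also examined. Of 12 genes for glutathione synthesis, reduction and breakdown, 11 carried a test, and GGT1, which breaks down glutathione outside the cell, was the only gene called. Its deposited value in jmj28 against JMJ28np5-OE was -0.63 on the log2 scale (FDR = 0.000461 in the authors' deposited table). In that comparison 7.29% of all tested genes were called lower. GSH1 and GSH2, the enzymes of glutathione synthesis, had deposited log2 fold changes of -0.07 and -0.03 in jmj28 against WT and -0.08 and 0.01 in JMJ28np5-OE against WT. None of 4 ABCC transporters and none of 9 TGA factors and partners was called in any comparison at an FDR under 0.05 in the authors' deposited table. Over all tested genes, jmj28 against WT called 1.30%, JMJ28np5-OE against WT 3.55% and jmj28 against JMJ28np5-OE 11.4%.

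Among 13 other detoxification genes, DTX1, an efflux carrier, and NAC102, a stress transcription factor, fell in jmj28 against WT, by 0.91 and 0.37 on the log2 scale (FDR = 0.025 and 0.0102 in the authors' deposited table). None was called in JMJ28np5-OE against WT. In jmj28 against JMJ28np5-OE, the glucosyltransferase genes UGT73B4 and UGT73B5 were higher, with log2 fold changes of 0.70 and 0.49. ABCG40, an ABC transporter, NAC102 and the cytochrome P450 gene CYP81D8 were lower, with -2.44, -0.49 and -0.74. The list thus held calls in both directions, as the tau class did. Of all tested genes, 1.10% were called lower in jmj28 against WT and 3.55% in either direction in JMJ28np5-OE against WT. For jmj28 against JMJ28np5-OE the shares were 4.12% higher and 7.29% lower.

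**Figure D4:**
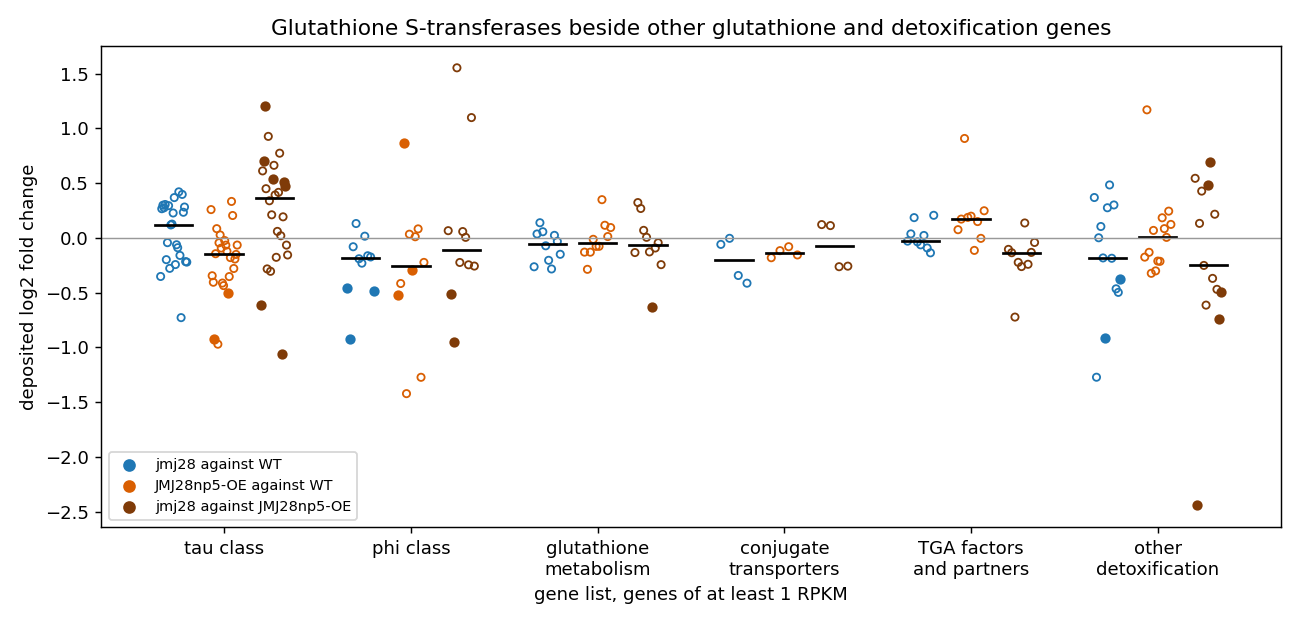
Deposited log2 fold changes of the tau and phi genes beside 4 other gene lists, genes of at least 1 RPKM, with filled points for an FDR under 0.05 and bars for the medians over the plotted genes. The transporters and the TGA factors have no filled point, and the other detoxification genes have filled points on both sides of 0.

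Hormone and early stress genes were called in the same tables. Of 9 early stress genes such as ZAT10 and TCH3, 4 fell in jmj28 against WT, 8 rose in JMJ28np5-OE against WT and 8 were lower in jmj28 than in JMJ28np5-OE. Of 15 salicylic acid and jasmonate genes, the counts were 4, 8 and 11 in the same directions. The matching shares of all tested genes were 1.10%, 2.87% and 7.29%. Of the early stress genes that fell in jmj28, ZAT10, CAF1A and ERF104 had WT libraries far apart. These stood at 13.7 and 5.74, 25.7 and 8.40, and 36.5 and 11.6 RPKM, and those of TCH3 at 23.1 and 25.6. VSP1, a jasmonate-responsive gene, had log2 fold changes of -1.21 in jmj28 and 1.16 in JMJ28np5-OE against WT, and the authors' deposited table lists both FDR values as 0. The defence gene PR1 was highest in WT. It had 14.7 and 13.2 RPKM in WT, 10.3 and 2.19 in JMJ28np5-OE and a mean of 0.316 in jmj28. PR1 fell in jmj28 (log2 fold change -5.50, FDR listed as 0), and its value of -1.14 in JMJ28np5-OE did not pass (FDR = 0.105 in the authors' deposited table). The part of these genes in the glutathione S-transferase values was not tested.

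Of 11 root markers, 2 rose in jmj28 against WT (TIP2;3 and AGP30) and 0 in JMJ28np5-OE. In jmj28 against JMJ28np5-OE, 3 were higher (these 2 and CASP1). The shares of all tested genes called higher were 0.208%, 2.87% and 4.12% in these comparisons. The summed level of the root markers was 209 RPKM for WT, 259 for jmj28 and 212 for JMJ28np5-OE, and no marker was at 0. The sum is carried by few genes: TIP2;2, which was not called, had means of 102, 123 and 113 RPKM in that order. SCR and SHR, which pattern the root, had log2 fold changes of -0.01 and 0.07 in jmj28 against WT. Of the 11 root markers, 9 were above 0 and 2 below in that comparison, with a median of 0.14. In jmj28 against JMJ28np5-OE, 10 were above 0 and 1 below, with a median of 0.40. For JMJ28np5-OE against WT, 3 were above 0 and 8 below, with a median of -0.08. The 5 leaf markers summed to 17155, 16700 and 18054 RPKM in WT, jmj28 and JMJ28np5-OE, and the 4 floral and seed markers to 2.19, 1.55 and 3.70. In jmj28 against JMJ28np5-OE, 1 leaf marker and 2 floral and seed markers were called lower, beside 7.29% of all tested genes. The part of tissue shares in the values above was not tested, and in whole seedlings fewer cells of a type and less RNA per cell cannot be told apart.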

How the data were processed

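Total RNA of whole seedlings was sequenced from 6 libraries, 2 per genotype, made with a TruSeq RNA kit that does not mark strand, per the labels' protocols. Per the submitters' processing notes, genome TAIR10 was used. Aligner, counting rule and test were not given in the sources used here.

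Per the file headers, the authors deposited for each of 3 pairs of genotypes a p-value per gene with its FDR and Bonferroni adjustment, beside a log2 fold change and the linear fold. The authors' level column, the higher genotype mean, is in RPKM, as its values show when multiplied by exon length. The deposited FDR matched a Benjamini-Hochberg adjustment over all 34262 listed genes, of which 10720 had no reads and no test. CO and FT, whose entries equal those of other genes in all 3 tables, were left out of the counts. A shorter deposited list of 533 genes repeats entries of the jmj28 table and was not used. It holds the genes with a p under 0.05 in the authors' test and at least 1.5-fold lower in jmj28 than in WT. Of the family it holds 2 genes, GSTF6 and GSTU4. GSTF2 and GSTF7, 1.40-fold and 1.37-fold lower, are not in it.

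No table of single libraries was used here, so the deposited test is the main test, and no count model was fitted. Library totals and whole reads were solved from the deposited means and exon lengths of the reference (tolerance 1e-09). This gave 98.9% of the highest and second means. The solving step was tested on means simulated with these same totals and exon lengths and a known genotype, and 7371 of 7371 came out right. That test could not show a wrong total, a wrong exon length or a mean given to the wrong genotype. The lowest genotype mean was taken from the higher mean and the deposited fold change. Depth sets the precision of low genes, and read numbers cover counting error only.

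Members and lists were chosen with earlier results of these data known. Named were JMJ28, every member called in any comparison, the most abundant member of each class, all members of classes under 5 and up to 4 called genes of smallest FDR from each other list. Added after their values were seen were GSTF3, GSTF8, GSTF13, GSTU2, GSTU5, GSTU6, GSTU14, GSTU15, GSTU16, GSTU17, GSTU20, GSTU26, GSH1, GSH2, UGT73B5, CYP81D8, TIP2;2, SCR and SHR, and genes named only as neighbours or overlaps. CAF1A and ERF104 were added likewise. Windows of 300 bases, motifs and coding identity came from the RefSeq annotation of TAIR10.1, whose gene coordinates equal the deposited ones for all 44 members. A sequence comparison of 1 further pair is not reported here. Scripts used Python 3.11.15, pandas 2.3.3, numpy 2.4.6, Biopython 1.88 and matplotlib 3.10.9.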

Additional observations from a re-analysis of the deposited data

How the results depend on the processing

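The counts of called genes, 3 in jmj28 against WT, 5 in JMJ28np5-OE against WT and 9 in jmj28 against JMJ28np5-OE, came to 1, 0 and 1 at a Bonferroni p under 0.05. They came to 0, 0 and 2 with a change of at least 2-fold added, and to 1, 2 and 2 where both known libraries of the higher genotype had to be 1.5-fold above the other mean. An FDR over tested genes only, or over genes of at least 1 RPKM, gave 3, 5 and 11. With an unadjusted p under 0.05 in the authors' test and a change of at least 1.5-fold, the first 2 counts came to 2 and 6. No called value changed sign under 106 alternatives, and GSTU4 in jmj28 against JMJ28np5-OE was the only one to move by over 1.5-fold. Many of these alternatives reuse the deposited fold change, which also sets the lowest genotype mean, so they could hardly change a sign. No library of the lowest genotype could be left out. The count of alternatives is therefore no measure of how stable the calls are. The tau median in jmj28 against WT was -0.04 over all 27 genes and 0.12 over those of at least 1 RPKM. With a pseudocount of 1, the zeta value was 0.72 in JMJ28np5-OE against WT and -0.75 in jmj28 against JMJ28np5-OE, and the theta median in the latter was 0.085. Leaving out each library, the medians in jmj28 against WT ranged from -0.31 to -0.11 for phi, from -0.16 to -0.0027 for theta, from -0.05 to 0.10 for tau, and from -0.46 to 0.15 for zeta. The phi median in jmj28 against JMJ28np5-OE ranged from -0.16 to 0.0039, and the theta median in JMJ28np5-OE against WT from -0.12 to 0.05. All of these but the first 2 crossed 0. The theta median in jmj28 against WT was 0.01 with all libraries and below 0 whichever jmj28 or WT library was left out, so its sign was not stable. These ranges use all members above 0 reads and keep the genotype mean where no library is known, a setting chosen after seeing the data. The planned setting, over members with recovered libraries only, was not run because recovery depends on the levels. The cause of these differences was not tested. No paired analysis was possible because the deposited means carry no replicate numbers. The replicate block and other count normalizations were not run for want of library tables. With 2 libraries a genotype, and no library values for the lowest genotype, the spread behind each call is known only in part.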
